A study of Homo sapiens with 27 samples.

Results

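PPP4C, NCSTN, LLGL1, GNB2, RGCC, CHST14, HDHD5, SEC61G and RNF130 are 9 of the 14008 genes in the count table. They were selected on their counts in this table, which were lower in cells carrying a deletion at LDAH than in negative control cells of the same experiment, so their values in that comparison are a description and carry no test. The label under which they were gathered, genes lowered by LDAH deletion, held in 3 of the 4 deletion libraries and, for most of the 9, not in the other one, S54. All 9 passed the filter on low counts in both experiments, with and without the libraries set apart below.

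The study asked how the loss of a candidate enhancer changes expression of nearby genes in teloHAEC, a line of human aortic endothelial cells immortalised with telomerase. Every culture, controls included, received Cas9 ribonucleoprotein by electroporation, and RNA was collected 2 days later for 3′-end sequencing, which counts reads near the polyadenylation site. In set B the groups were LDAH deletion (C2orf43 in the labels; 4 libraries, guides flanking a candidate LDAH enhancer), HPRT-targeted (4 libraries, a guide that cuts HPRT) and negative control (7 libraries, a guide with no target). In set A they were SMAD3 deletion (4 libraries, guides flanking a candidate SMAD3 enhancer), HPRT-targeted (4) and negative control (4). Cells were collected as treated pools, with no selection of edited clones named in the labels, and the deleted intervals were not known here. The labels do not say whether replicate libraries came from separate cultures, so p-values measure the spread between these libraries only. In bulk RNA, fewer cells of a kind and less RNA per cell cannot be told apart.

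The 9 genes do not form a known pathway. PPP4C is the catalytic subunit of protein phosphatase 4, a serine/threonine phosphatase of the PP2A family with roles in DNA repair and centrosome function. GNB2 is a beta subunit of heterotrimeric G proteins, which carry signals from G protein-coupled receptors. RGCC is a regulator of the cell cycle first described as a response gene to complement. NCSTN (nicastrin) is the large glycosylated subunit of gamma-secretase, the membrane protease that releases the Notch intracellular domain. SEC61G is the small gamma subunit of the Sec61 channel, through which secretory proteins enter the endoplasmic reticulum. CHST14 is the Golgi sulphotransferase that adds the 4-O-sulphate of dermatan sulphate. RNF130 is a membrane-anchored RING ubiquitin ligase of the Goliath family. LLGL1 is a human homologue of the fly polarity protein Lethal giant larvae, and HDHD5 belongs to the haloacid dehalogenase family of hydrolases.

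Of the 27 libraries, 7 stood apart from the rest, and results are given with and without them. In set B these were S54 (LDAH deletion), S57 and S64 (HPRT-targeted) and S65 and S67 (negative control), in which ribosomal protein genes took 14.2% to 16.4% of counts and 1910 to 2641 genes had no count, against 8.76% to 10.7% and 743 to 1517 genes in the other 10 libraries. In set A they were S13 (SMAD3 deletion) and S30 (HPRT-targeted), with 14.5% to 15.6% of counts in ribosomal protein genes, against 11.2% to 13.7% in the other 10. Totals ran between 3430481 and 6414050 counts in set B and between 4761002 and 7752413 in set A. Deletion libraries S50 and S53 held 1081 and 1229 genes with no count, within the range of the other libraries of set B that did not stand apart, and S51 held 1517, more than any of those (1376 at most). All 11 endothelial markers checked had counts in every group, with sums of 1131 to 2324 CPM (counts scaled to the library's total). None of 4 epithelial markers was in the table, and PDGFRA, the only one of 6 fibroblast markers present, reached at most 2.62 CPM. Of 5 smooth muscle markers, MYH11, CNN1 and DES were not in the table, and the other 2 summed to 34.9 to 62.8 CPM in LDAH deletion and 22.3 to 50.2 CPM in negative control libraries of set B. Of 4 blood markers, PTPRC and HBB were not in the table, and the other 2 summed to 7.58 to 15.3 CPM in LDAH deletion and 4.01 to 15.1 CPM in negative control libraries of set B. The part of these markers in the results was not tested. LDAH itself averaged 7.09 ± 3.36 CPM in the 4 LDAH deletion libraries and 12.1 ± 3.43 CPM in the 7 negative controls (SD). Its log2 fold change was -0.76 ± 0.40 (SE; edgeR quasi-likelihood test, adjusted p = 1.00), so the targeted gene did not pass the test. Without the 5 libraries set apart it was -0.51 ± 0.34 (edgeR, adjusted p = 0.580) and did not pass either. The lowest LDAH level of the deletion group was that of S54, 2.67 CPM from 9 reads. S50, S51 and S53 lay between 6.62 and 10.6 CPM, overlapping the 5 negative controls not set apart (7.71 to 18.03 CPM). With all libraries, SMAD3 stood at -0.44 ± 0.14 in SMAD3 deletion relative to negative control (edgeR, adjusted p = 0.702). HPRT1, also with all libraries, stood at -0.23 ± 0.33 and -0.33 ± 0.21 in HPRT-targeted cells of sets B and A, each relative to negative control.

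The start sites of 3 genes are shown because most pairs of members correlated positively across libraries and these windows differ in their motifs. PPP4C and NCSTN had no GC box, the binding motif of SP1-type factors, and CHST14 had 5. Each line is 300 bases, 250 before the start of transcription and 50 after it, from RefSeq (GRCh38.p14), and capitals mark the GC box, GGGCGG on either strand.
PPP4C promoter, chr16:30075744-30076043, plus strand: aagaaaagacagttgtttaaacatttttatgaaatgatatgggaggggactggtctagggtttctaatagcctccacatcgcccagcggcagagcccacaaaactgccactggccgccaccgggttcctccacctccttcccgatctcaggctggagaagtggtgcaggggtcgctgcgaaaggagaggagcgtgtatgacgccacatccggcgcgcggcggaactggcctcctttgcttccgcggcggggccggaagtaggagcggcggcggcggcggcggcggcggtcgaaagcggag
NCSTN promoter, chr1:160343133-160343432, plus strand: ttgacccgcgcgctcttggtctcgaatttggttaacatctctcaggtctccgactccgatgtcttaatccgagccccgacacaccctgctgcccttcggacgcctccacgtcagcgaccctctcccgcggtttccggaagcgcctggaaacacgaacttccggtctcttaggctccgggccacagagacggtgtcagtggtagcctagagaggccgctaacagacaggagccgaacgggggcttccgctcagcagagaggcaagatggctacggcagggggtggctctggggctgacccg
CHST14 promoter, chr15:40470734-40471033, plus strand: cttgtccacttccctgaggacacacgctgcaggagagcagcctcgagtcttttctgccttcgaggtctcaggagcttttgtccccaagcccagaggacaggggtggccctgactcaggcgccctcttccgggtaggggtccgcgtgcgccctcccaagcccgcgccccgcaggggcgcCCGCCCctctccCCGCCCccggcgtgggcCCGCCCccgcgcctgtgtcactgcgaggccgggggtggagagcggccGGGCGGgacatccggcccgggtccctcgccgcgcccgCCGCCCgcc
Among 35116 such windows of all genes, 45% held at least 1 GC box. All 9 members matched a window (HDHD5 has 2), and 7 of 9 held a GC box: LLGL1 6 copies, RGCC 5, CHST14 5, RNF130 4, and GNB2, SEC61G and HDHD5 1 each. CCAAT stood in the windows of HDHD5 and SEC61G (34.6% of all windows, either strand). TATAAA (11.5%) and CACGTG (7.26%) were found for HDHD5 alone among the 9, and TGACGTCA (1.85%) for none. No motif searched was common to all 9 genes. The window GC content ran between 61% for SEC61G and 84.0% for LLGL1, apart from the second HDHD5 window at 47.7%, against a median of 58.7% over all windows.

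The levels below are CPM scaled by trimmed-mean normalisation (TMM) over all 27 libraries. These are 3′-end counts, 1 read position per transcript, and are compared within a gene. Among the signalling proteins, PPP4C (ENSG00000149923, chromosome 16, 30075978 to 30085377, plus strand, hg38) had the widest range. Its level was 4.68, 4.65, 0.496 and 50.4 CPM in LDAH deletion libraries S50, S51, S53 and S54. HPRT-targeted libraries S55, S57, S59 and S64 had 37.4, 46.1, 40.5 and 70.0 CPM, and the 7 negative controls of set B ran between 19.1 and 64.5 CPM with a median of 42.7 CPM. S50, S51 and S53 thus lay below every control, and S54 lay among the higher controls. In S53 the PPP4C level rested on 3 reads, 1.43% of the median of the 5 controls that did not stand apart, with an exact 95% Poisson interval of 0.294% to 4.17% that covers counting error only.

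GNB2 (ENSG00000172354, chromosome 7, 100673531 to 100679174, plus strand) showed the same order of deletion libraries. LDAH deletion libraries S50, S51, S53 and S54 had 31.6, 30.0, 7.11 and 82.7 CPM, HPRT-targeted libraries 90.0, 58.1, 87.5 and 56.6 CPM, and negative controls a lowest, median and highest level of 51.3, 85.4 and 107 CPM. As for PPP4C, S53 was lowest and S54 lay within the controls. RGCC (ENSG00000102760, chromosome 13, 41457559 to 41470882, plus strand) had 9.37, 2.72, 0.827 and 18.1 CPM in the same deletion libraries. HPRT-targeted libraries had 24.3, 36.8, 28.8 and 11.1 CPM, and the negative controls ran between 15.5 and 36.1 CPM with a median of 19.3 CPM. S54 lay within the negative controls, and S50, S51 and S53 lay below every other library of set B. The gap between S50 and S51 was wider for RGCC than for the other 8 genes, at 51.9% and 15.1% of the control median, and the 5 reads in S53 set it at 4.59%.

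NCSTN (ENSG00000162736, chromosome 1, 160343272 to 160358952, plus strand) was counted at 13.5, 10.1, 2.65 and 29.1 CPM in LDAH deletion libraries S50, S51, S53 and S54. HPRT-targeted libraries had 31.6, 13.5, 37.6 and 23.2 CPM and negative controls 14.5, 34.9 and 49.2 CPM at their lowest, median and highest. The lowest values of the HPRT-targeted and negative control groups were those of S57 and S65, both among the libraries set apart. Without the 5 libraries set apart, the deletion group reached 13.5 CPM at most and the 5 negative controls 25.2 CPM at least. A like-named pseudogene, NCSTNP1, is not in the count table, and how reads shared with it were counted is not stated.

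SEC61G (ENSG00000132432, chromosome 7, 54752250 to 54759974, minus strand) had 51.2, 58.8, 10.6 and 115 CPM in the deletion libraries. HPRT-targeted libraries held 130, 154, 142 and 115 CPM, and the negative controls 85.9, 127 and 164 CPM at their lowest, median and highest. Its 64 reads placed S53 at 7.98% of the control median, with an interval of 6.15% to 10.2%. CHST14 (ENSG00000169105, chromosome 15, 40470998 to 40474571, plus strand) had 12.8, 9.45, 5.46 and 21.9 CPM in the deletion libraries. HPRT-targeted libraries had 29.3, 18.1, 26.5 and 5.33 CPM and negative controls 10.5, 27.1 and 40.4 CPM. HPRT-targeted library S64, one of those set apart, was as low as S53, so CHST14 overlapped between groups unless those libraries were left out.

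RNF130 (ENSG00000113269, chromosome 5, 179911651 to 180072118, minus strand) was the most even of the 9 in the deletion group, at 14.6, 10.4, 11.6 and 18.4 CPM. HPRT-targeted libraries had 16.0, 24.8, 23.2 and 21.5 CPM and negative controls 20.9, 33.2 and 53.04 CPM. All 4 deletion libraries, S54 included, lay below all 7 negative controls, which held for 0.722% of the 11769 genes tested and for no other member. The HPRT-targeted levels overlapped both groups. In S53 RNF130 stood at 35.2% of the control median, where the other 8 members stood between 1.43% and 18.6%.

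LLGL1 (ENSG00000131899, chromosome 17, 18225587 to 18244875, plus strand) had 14.1, 12.01, 2.48 and 41.2 CPM in the deletion libraries. HPRT-targeted libraries had 33.1, 26.1, 48.6 and 19.1 CPM and negative controls 27.9, 35.1 and 68.7 CPM. S50, S51 and S53 lay below all of these and S54 within them. Its last 40 bases overlap FLII on the opposite strand at the 3′ end, where this assay reads, and whether the counting used strand is not stated, so reads of the 2 genes cannot be told apart there. HDHD5 (ENSG00000069998, chromosome 22, 17137511 to 17165287, minus strand) had 13.5, 8.81, 3.31 and 58.7 CPM in the deletion libraries, against 17.3, 30.9, 23.8 and 57.7 CPM in HPRT-targeted libraries and 24.6, 28.8 and 54.7 CPM in negative controls. S50, S51 and S53 were again the lowest. The 4 highest HDHD5 levels of set B were those of S54, S64, S67 and S65, each of them set apart.

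**Figure D1:**
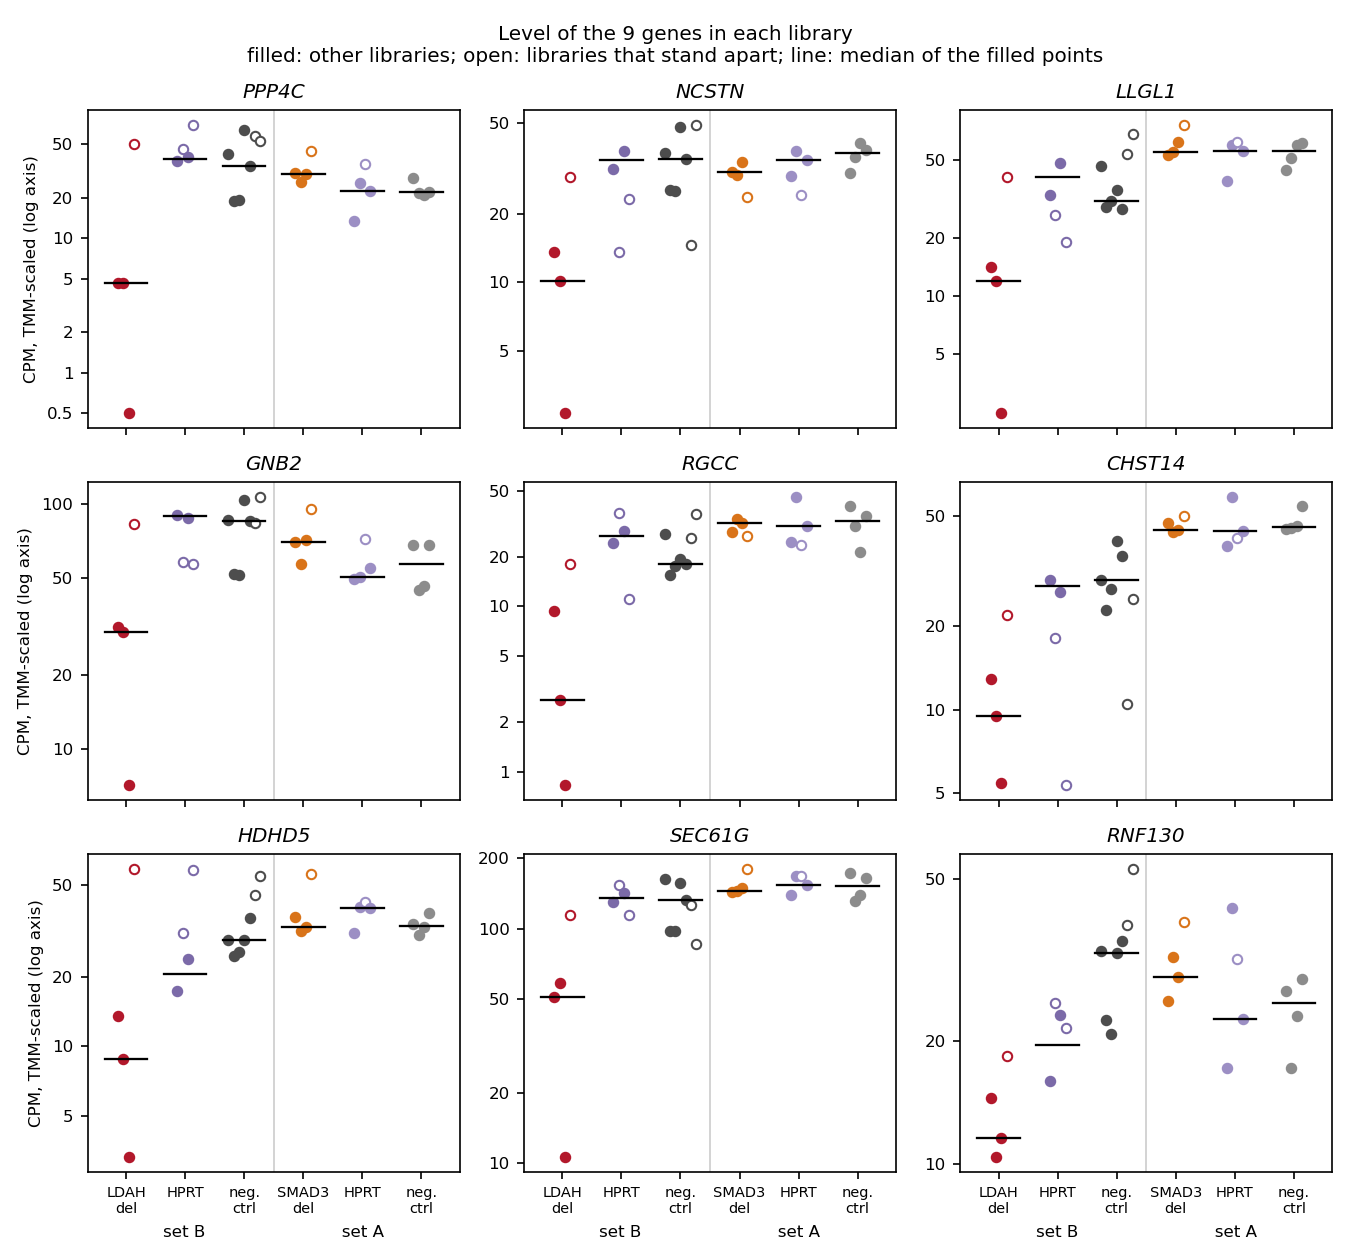
Level of each of the 9 genes in every library, in TMM-scaled CPM on a log axis, by group (LDAH deletion, HPRT-targeted and negative control in set B, then SMAD3 deletion, HPRT-targeted and negative control in set A). Open points are the 7 libraries that stood apart and lines are medians of the filled points; the 3 filled LDAH deletion points lie below the filled points of the other set B groups for every gene.

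Relative to the median of the 5 negative controls not set apart, the members stood at a median of 43.7% in S50, 31.7% in S51, 8.05% in S53 and 96.9% in S54. In S54 they ran between 55.9% for RNF130 and 204% for HDHD5. The same measure over all 8473 genes with a mean of at least 10 CPM had a median of 101%, 100%, 100% and 98.4% in the 4 libraries. Levels under 25% of the control median were seen in 0.13% of those genes in S50 (1 of 9 members), 0.224% in S51 (2 of 9), 0.814% in S53 (8 of 9) and 5.02% in S54 (0 of 9). S53 thus carried the largest differences for 8 members, and the members were chosen for being low in the deletion group. S54 had a larger share of low genes than S50, S51 and S53, and 0 of 9 members is near that share. The other set B libraries set apart, HPRT-targeted or negative control, also had many low genes. Their shares under 25% were 6.23% in S57, 7.02% in S64, 5.43% in S65 and 7.47% in S67. Ribosomal protein genes took 8.76% of counts in S53, the lowest share of set B, and 16.4% in S54, the highest; their part in these differences was not tested.

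**Figure D2:**
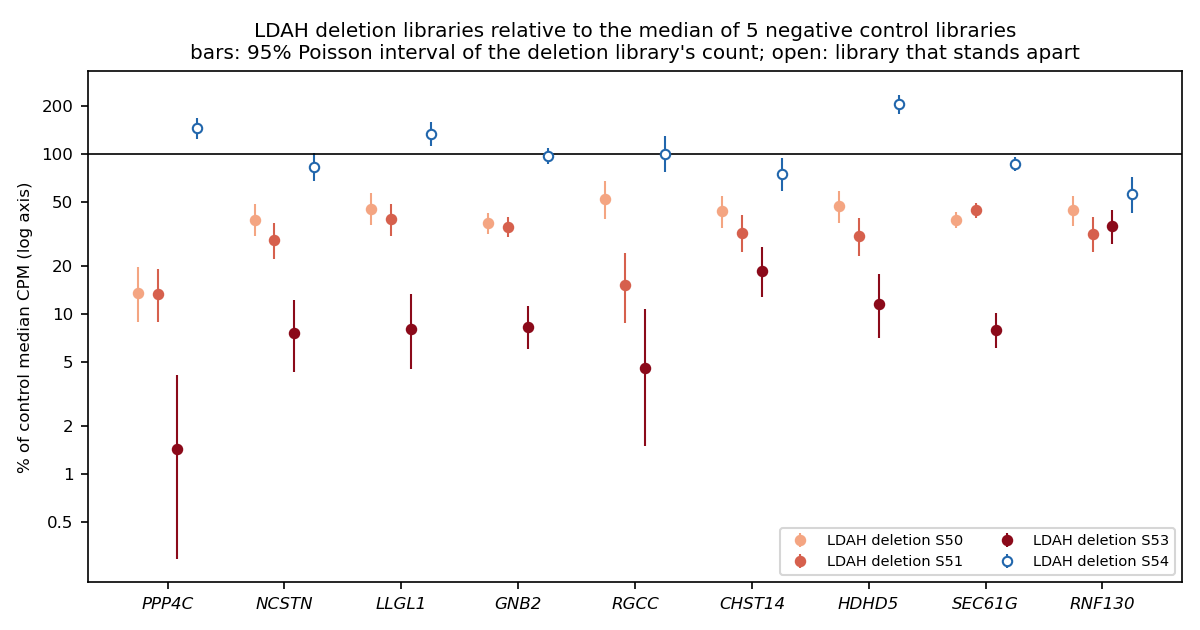
Level of each member in the 4 LDAH deletion libraries as a percent of the median of the 5 negative controls of set B that did not stand apart, on a log axis. Bars are exact 95% Poisson intervals, which cover counting error only; S53 is lowest for 8 of the 9 genes and S54 is the highest for all 9.

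With all 15 libraries of set B in the fit, the 9 members had log2 fold changes between -1.60 ± 0.57 (SE) for RGCC and -0.75 ± 0.56 for HDHD5 in LDAH deletion relative to negative control. PPP4C stood at -1.51 ± 0.74, NCSTN at -1.30 ± 0.49, RNF130 at -1.31 ± 0.27, LLGL1 at -1.28 ± 0.51, CHST14 at -1.15 ± 0.45, GNB2 at -1.11 ± 0.44 and SEC61G at -1.07 ± 0.40. Their median was -1.28, beside 0.01 over the 11769 genes tested. None of the 9 was called lower at an adjusted p under 0.05, where 0% of genes were called lower (edgeR). At an unadjusted p under 0.05, 7 of the 9 lay lower (PPP4C and HDHD5 did not), beside 3.33% of all genes, and DESeq2 called RNF130 alone of the 9, beside 0.119% of genes called lower.

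Without the 5 libraries set apart, 3 deletion libraries were set against 5 negative controls, and every member moved further down except RNF130. PPP4C had the lowest log2 fold change at -3.47 ± 0.46, then RGCC at -2.20 ± 0.43, NCSTN at -1.97 ± 0.34 and LLGL1 at -1.84 ± 0.34. CHST14 and HDHD5 (-1.76 each), GNB2 (-1.74) and SEC61G (-1.70) lay close together, and RNF130 came last at -1.26 ± 0.25. The median of the 9 was -1.76, beside -0.00 over all 12153 genes tested. All 9 passed an adjusted p of 0.05, as did 1.57% of genes in the same direction, and in all 9 the groups did not overlap, as in 5.6% of genes. These counts follow from the choice of the genes and are not evidence for it. With S54 alone left out, the 9 values ran between -3.67 and -1.48 and PPP4C alone of them was called, beside 0.025% of genes called lower. With S53 left out besides the 5, they ran between -2.94 and -1.21 and 8 of 9 were called, beside 0.464% of genes. Without the 5, DESeq2 called all 9, beside 2.96% of genes, and limma voom 8 of 9, beside 0.831%.

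The comparison of LDAH deletion with the HPRT-targeted cells, which also carry a cut, shares its deletion libraries with the one above. With all libraries, log2 fold changes lay between -1.75 for RGCC and -0.65 for HDHD5, with PPP4C at -1.73 and RNF130 at -0.65. Without the 5 libraries, 3 deletion libraries stood against 2 HPRT-targeted ones, and the values lay between -3.57 ± 0.51 for PPP4C and -0.71 ± 0.30 for RNF130, with HDHD5 at -1.29 ± 0.37. RNF130 thus stood nearer to HPRT-targeted cells than to negative controls (-1.26), and PPP4C about as far from both (-3.47 to negative controls); the differences between these pairs of values were not tested.

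HPRT-targeted cells set against the negative controls of set B, which also served in the choice of the genes, gave values on both sides of 0. With all libraries they ran between -0.65 ± 0.26 for RNF130 and 0.22 ± 0.68 for PPP4C, with a median of -0.15 beside -0.02 over all genes. Without the 5 libraries they ran between -0.55 ± 0.28 for RNF130 and 0.44 ± 0.42 for RGCC, with a median of 0.06. The sign turned for 3 members when the 5 were left out: LLGL1 stood at 0.28 without them and -0.39 with all libraries, GNB2 at 0.23 and -0.15, and NCSTN at 0.02 and -0.34. edgeR called no gene (0%) in either fit. At an unadjusted p under 0.05, it placed 96 of 11769 genes lower (0.816%) and 110 higher (0.935%) with all libraries. RNF130 was the only member among the 96 (edgeR, adjusted p = 1.00).

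Set A consists of other libraries than those that chose the genes, so its comparisons are tests. None of the 9 members was called in any of the 3 comparisons, 27 tests in all, where edgeR called 0% of the 11467 genes in either direction. In SMAD3 deletion relative to negative control, 314 genes (2.74%) lay lower and 464 (4.05%) higher at an unadjusted p under 0.05, and no member was among them. DESeq2 called 8 genes lower and 6 higher there. PPP4C averaged 32.7 ± 7.95 CPM in SMAD3 deletion, 24.3 ± 9.11 CPM in HPRT-targeted and 23.2 ± 3.18 CPM in negative control libraries (SD, n = 4 each). Its 4 libraries had 30.4, 26.1, 29.9 and 44.2 CPM in SMAD3 deletion (S10 to S13), 13.5, 25.7, 35.6 and 22.5 CPM in HPRT-targeted and 27.95, 21.7, 21.1 and 22.3 CPM in negative control cells, so the groups overlapped.

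The log2 fold change of PPP4C between SMAD3 deletion and negative control was 0.50 with a 95% interval of -0.03 to 1.02 (edgeR, adjusted p = 0.734). GNB2 had 0.38 (-0.03 to 0.79; edgeR, adjusted p = 0.734), RNF130 0.40 (-0.13 to 0.93; edgeR, adjusted p = 0.771) and NCSTN -0.28 (-0.63 to 0.06; edgeR, adjusted p = 0.745). The other 5 members lay between -0.07 for RGCC and 0.22 for HDHD5. The median over the 9 was 0.19 beside 0.00 over all genes. The lowest bound of these intervals was -0.63, for NCSTN. Its fold change between LDAH deletion and negative control was -1.97 without the 5 libraries and -1.30 ± 0.49 with all libraries. The 2 deletions were not tested against each other, because the sets have controls of their own and the LDAH values chose the genes.

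HPRT-targeted cells of set A differed from their negative controls by -0.21 (-0.56 to 0.13) for NCSTN at the low end and 0.25 (-0.28 to 0.79) for RNF130 at the high end, with a median of -0.01. SMAD3 deletion against HPRT-targeted cells gave -0.07 for NCSTN to 0.44 for PPP4C. In no member were the groups of set A without overlap when all libraries were used, as they were lower in 2.62%, 2.1% and 1.59% of genes and higher in 2.86%, 2.24% and 1.66% (SMAD3 deletion against negative control, HPRT-targeted against negative control and SMAD3 deletion against HPRT-targeted). Without S13 and S30, PPP4C (0.51, 0.11 to 0.91; edgeR, adjusted p = 0.223) and GNB2 (0.37, 0.05 to 0.70; edgeR, adjusted p = 0.275) did not overlap between SMAD3 deletion and HPRT-targeted cells, as was so for 8.8% of all genes in that direction, and 0.147% of genes were called higher.

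**Figure D3:**
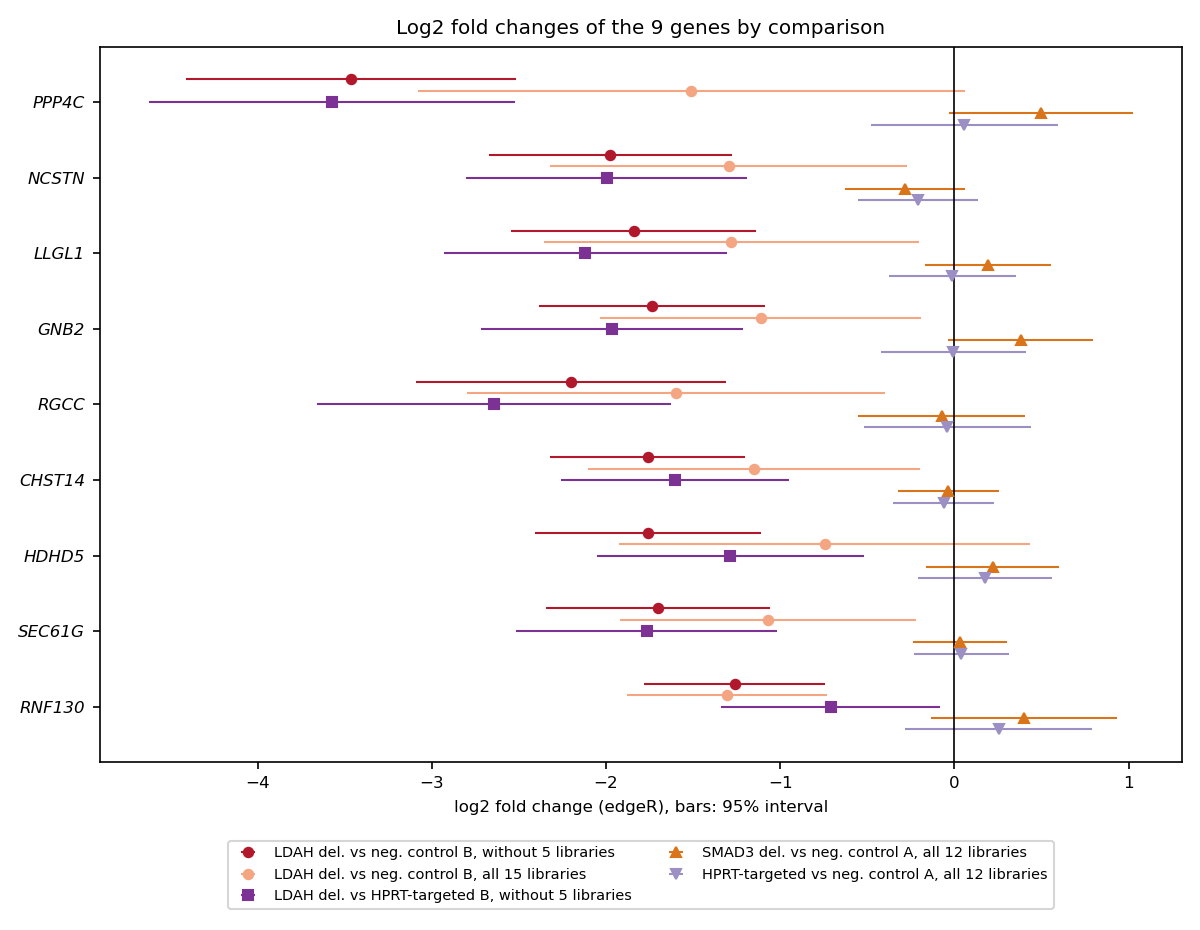
Log2 fold change of each member with its 95% interval (edgeR) in LDAH deletion against negative control with and without 5 libraries, LDAH deletion against HPRT-targeted cells, and, in set A, SMAD3 deletion and HPRT-targeted cells against negative control. The set B values chose the genes and all lie below 0, while every set A interval includes 0.

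Over the 6 groups, LDAH deletion had the lowest mean level of all 9 genes, but with all libraries it overlapped the next group for each of them. No member had all 4 deletion libraries below every other library of the series, as 0.158% of genes did. Without the 7 libraries set apart, LDAH deletion lay below every other library for all 9, as for 3.06% of genes, and the members were chosen for being low there. Negative controls without the libraries set apart also differed between the sets. RGCC, LLGL1 and CHST14 had 0.611, 0.622 and 0.653 times their set A mean in set B, PPP4C had 1.55 times and GNB2 1.34 times, and the other 4 lay between 0.853 and 1.22 times. The sets cannot be told apart from batch, and levels across them are a description.

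Few partners of the 9 genes passed the test. Lists of complex subunits, relatives and pathway genes held 70 other genes that passed the filter, and without the 5 libraries 40 of them lay lower and 30 higher in LDAH deletion than in negative control, with a median of -0.01. AKT1 and SEC61B were called lower, 2 of 70, beside 1.57% of all genes, a count too small to set apart from that share. None was called higher, beside 0.173% of all genes. With all 15 libraries none of the 70 was called by edgeR (0% of genes), and the median was -0.01.

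The remainder of protein phosphatase 4, which binds PPP4C through its regulatory subunits, did not pass the test: 6 tested partners had a median of 0.11, with 2 lower and 4 higher. PPP4R3A stood at 0.34 ± 0.18 and PPP4R3B at 0.14 ± 0.18. The related catalytic subunits PPP2CB (-0.05) and PPP2CA (-0.00) lay near 0, beside -3.47 for PPP4C. Gamma-secretase holds nicastrin together with PEN-2 and other subunits. Of its 5 tested genes beside NCSTN, 3 lay lower and 2 higher, and none was called. PSENEN, which encodes PEN-2, stood at -0.41 ± 0.20 (edgeR, adjusted p = 0.379).

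Among G protein beta and gamma subunits, 8 were tested beside GNB2, 2 lower and 6 higher, with a median of 0.13. GNB1, another beta subunit, stood at 0.16 and GNG10 at -0.63 ± 0.19 (edgeR, adjusted p = 0.0903). The 7 tested polarity genes had a median of 0.34, with DLG1 at 0.36 ± 0.13 and PARD3 at 0.41. Of 14 genes of chondroitin and dermatan sulphate synthesis, 11 lay lower and 3 higher, with a median of -0.05 and none called; CHST11, another sulphotransferase, stood at -0.46 ± 0.18 and CSGALNACT2 at 0.44. The 7 haloacid dehalogenase relatives of HDHD5 (median -0.06; ENOPH1 -0.18, NANP -0.15) and 3 Goliath-type ligases (median -0.09; RNF167 -0.28, RNF13 0.12) included no called gene.

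Of the 11 tested partners of SEC61G in protein translocation, 8 lay lower and 3 higher, at a median of -0.17. SEC61B, the beta subunit of the channel, had 130, 94.7, 54.4 and 261 CPM in LDAH deletion libraries S50, S51, S53 and S54, and 154, 192 and 331 CPM at the lowest, median and highest of the 7 negative controls. With all libraries its log2 fold change was -0.67 ± 0.33, and it was not called. Without the 5 libraries it was -0.96 ± 0.19 (edgeR, adjusted p = 0.00644), and the groups did not overlap, as in 5.6% of genes. SEC61A2, an alpha subunit with few counts, stood at -1.09 ± 0.56 with 2.13 CPM in LDAH deletion and 4.54 CPM in negative control cells and did not pass.

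AKT1, the kinase listed with RGCC as a reported binding partner, had 52.4, 48.2, 16.0 and 138 CPM in the same deletion libraries, and 61.2, 112 and 131 CPM at the lowest, median and highest of the negative controls. S54 was above all 7 controls. With all libraries AKT1 stood at -0.66 ± 0.39 and was not called. Without the 5 libraries AKT1 stood at -1.39 ± 0.28 (edgeR, adjusted p = 0.00777). The other 5 genes listed with RGCC, CDC25C among them at -0.01, were not called. With S53 left out as well, AKT1 stood at -1.004 (edgeR, adjusted p = 0.0507) and SEC61B at -0.67 (edgeR, adjusted p = 0.0459). In SMAD3 deletion relative to negative control, AKT1 stood at 0.09 and SEC61B at 0.07, and none of the 70 genes was called in a comparison of set A.

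**Figure D4:**
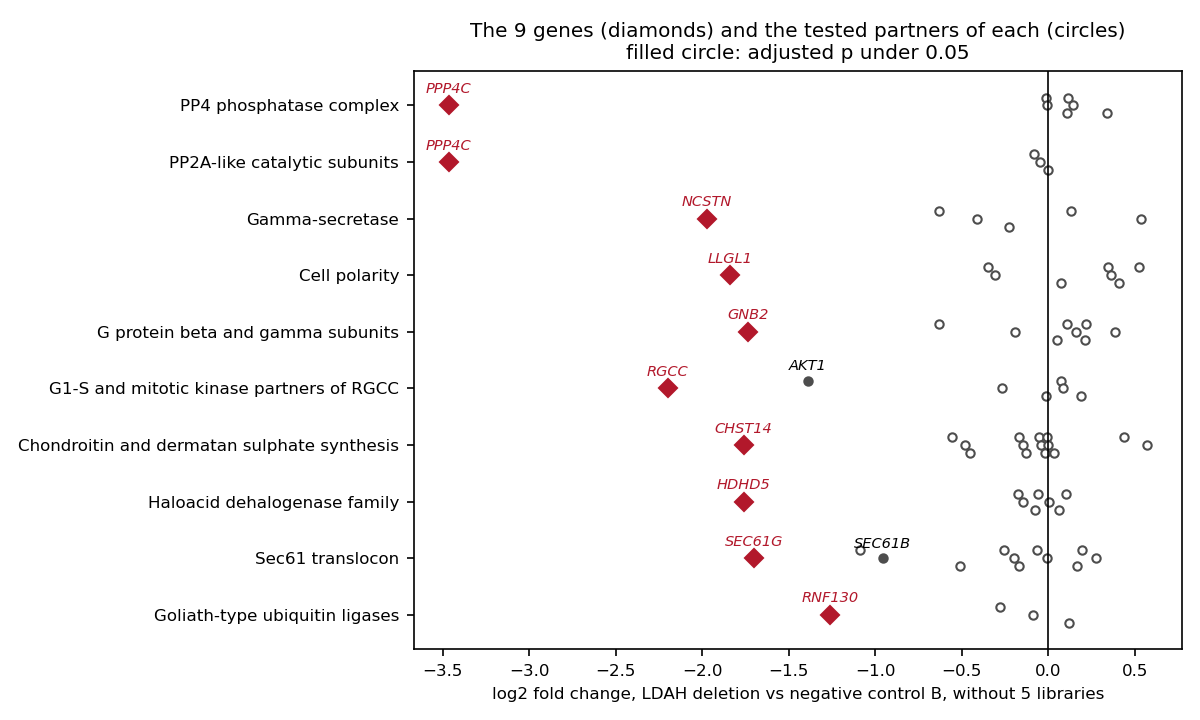
Log2 fold change between LDAH deletion and negative control of set B, without 5 libraries, for each member (diamonds) and the tested genes of its list (circles; filled where the edgeR adjusted p was under 0.05). AKT1 at -1.39 and SEC61B at -0.96 are the filled circles, and the other circles lie between SEC61A2 at -1.09 and CHST3 at 0.57.

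Within groups most pairs of members correlated positively. After centring log2 CPM within each group, all 36 pairs of members correlated positively over the 20 libraries that did not stand apart, with a median Pearson r of 0.82 and a range of 0.31 for LLGL1 with RNF130 to 0.96 for GNB2 with SEC61G. With all 27 libraries the median was 0.67, and in the 10 libraries of set B that did not stand apart it was 0.87. In the 12 libraries of set A, which played no part in choosing the genes, 29 of 36 pairs were positive with a median of 0.48, and NCSTN went against GNB2 (r = -0.62) and PPP4C (r = -0.47). These 12 include S13 and S30, while the set B value leaves out its 5 libraries set apart, so the sets are not ranked. The values outside set A include S50, S51 and S53, the deletion libraries in which the chosen genes were low. S53 lay far below S50 and S51 for most members, and its part in these correlations was not tested. No value over all pairs of genes is given beside them. The points share library depth and the composition of each library, and the 36 pairs share genes, so these values are a description.

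Over all 27 libraries, among 8458 genes with a mean of at least 10 CPM, the gene most like PPP4C was ERP44 (r = 0.957), that most like HDHD5 was GTF2H5 (0.956), and that most like SEC61G was PFN1 (0.933). The highest for the others were AKT1 for GNB2 (0.916), MAP1LC3B for LLGL1 (0.902), CTNND1 for RGCC (0.878), DNAAF5 for CHST14 (0.869), ENSA for NCSTN (0.864) and PAIP2 for RNF130 (0.809). The mean of the 9 was most like NDUFB3 (0.947), RCC2, LRRC41, COPS7A and MYD88 (0.921). Without the 7 libraries set apart, CSTB came first (0.968), with RCC2 and NDUFB3 next.

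The median transcript of the 9 was shorter and richer in GC than that of all genes, though RNF130, LLGL1 and CHST14 were longer than the median of all genes. The median length of the 9 was 1878 bases beside 3339 over 12105 genes, from 732 for SEC61G to 9945 for RNF130, and their median GC content was 57.1% beside 48.0%. In the last 300 bases, where the assay reads, the GC content was 45.7% at the median of the 9 and 39.3% over all genes. In 5 equal bins of length or GC content, all genes had median log2 fold changes between -0.04 and 0.11 in LDAH deletion relative to negative control, with or without the 5 libraries. The members lie on 8 chromosomes, 2 of them on chromosome 7, and none lies on chromosome 2 with LDAH. Of the 18 tested genes next to them, 10 lay lower and none was called, at a median of -0.03; COPA, which overlaps NCSTN by 129 bases, stood at 0.18, FLII at -0.17 and ALKBH5, near LLGL1, at -0.56 ± 0.16 (edgeR, adjusted p = 0.0676).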

How the data were processed

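Counts of 27 3′ mRNA (QuantSeq FWD) libraries, sequenced single-end on a NextSeq 550 per the labels, were used. The authors deposited raw read counts per Ensembl gene; hg38 and edgeR 3.24.3 are named in the submitters' processing notes, and the aligner, the counter and its strand setting are not stated there. Gene symbols came from a current name table (13949 IDs), else GENCODE 29 (57 IDs); 2 IDs had none. Each set was fitted with edgeR 4.0.16 (quasi-likelihood, TMM, filterByExpr, one mean per group, two-sided, Benjamini-Hochberg over all genes tested, 0.05) in R 4.3.3. DESeq2 1.42.0, limma 3.58.1 (voom with sample weights), other scaling, no filter and leaving libraries out were alternatives. Levels are CPM scaled by TMM over all libraries; log2 CPM used a prior count of 2. Poisson intervals are exact at 95%. The script was tested on simulated counts with known fold changes. Replicate counts differed beyond sampling noise in every group (chi-square per degree of freedom at least 3.03).

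The members, the gene lists and the libraries set apart were chosen with earlier results of these data known. Named partners are the 2 of each list with the smallest unadjusted p in LDAH deletion against negative control with all libraries, and the genes named as alike have the highest Pearson r; AKT1 and SEC61B also fall under the first rule. One named partner is not reported here.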

Additional observations from a re-analysis of the deposited data

Results flagged for a closer look

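In 3 of 54 sets of 4 to 7 replicate levels (9 genes in 6 groups), 1 library lay far from the others by Dixon's test at 95%, beside about 1 in 20 by chance. PPP4C was at 50.4 CPM in LDAH deletion library S54, with the next library at 4.68 CPM; S54 is one of those set apart, and without it the 3 others lay between 0.496 and 4.68 CPM. SEC61G was at 180.8 CPM in SMAD3 deletion library S13, with the next at 149 CPM; S13 is also one of those set apart. CHST14 was at 54.3 CPM in negative control library S33 of set A, with the next at 45.9 CPM, and S33 did not stand apart in its ribosomal protein share (13.3%). What set these libraries off was not tested.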

How the results depend on the processing

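No paired analysis was possible because the library numbers in the labels are all different and pair no libraries across groups. All 9 members stayed lower in LDAH deletion than in negative control under every alternative run. The genes were chosen on these counts for lying lower there, so this is a description and not evidence for the choice. The count of genes called in that comparison was 0 lower and 0 higher with all libraries, against 14 lower with DESeq2, 191 lower and 21 higher without the 5 libraries set apart, and 0 to 3 lower with 1 library left out (3 without S54). On top of leaving out the 5, settings chosen after seeing the data gave 318 lower and 73 higher (DESeq2), 101 lower (limma voom), 39 higher (no filter) and 56 lower and 4 higher (also without S53). LDAH deletion against HPRT-targeted cells went to 76 lower and 1 higher without the 5. In set A, leaving out S13 and S30 gave 1 gene higher (SMAD3 deletion against negative control), 1 lower (HPRT-targeted against negative control) and 38 lower with 17 higher (SMAD3 deletion against HPRT-targeted). DESeq2 gave 8 lower and 6 higher, 1 higher, and 10 lower with 7 higher in the same order; limma voom gave 2 higher in the first and 5 lower in the last. With 1 library left out, the last held 0 to 1 gene lower and 0 to 1 higher (1 without S30). The cause of these changes was not tested. Fewer libraries entered the fits that left some out, but not the DESeq2 and limma voom fits with all libraries. The common dispersion, edgeR's estimate of the spread between replicates, was 0.195 with all libraries of set B and 0.062 without the 5. In set A it was 0.043 with all libraries and 0.014 without S13 and S30.

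Members near 0 changed sign. In HPRT-targeted against negative control of set B, limma voom with all libraries gave NCSTN 0.028, LLGL1 0.19 and GNB2 0.25, all negative in edgeR with all libraries and positive without the 5, and leaving out 1 library turned the sign of HDHD5 (up to 0.11), RGCC (-0.090 without S57) and PPP4C (-0.011 without S64). In set A, without S13 and S30, HDHD5 was at -0.0012 and SEC61G at -0.058 in SMAD3 deletion against negative control, PPP4C at -0.20 and RGCC at 0.072 in HPRT-targeted against negative control, and CHST14 at -0.059 and HDHD5 at -0.12 in SMAD3 deletion against HPRT-targeted. With limma voom, RGCC was at 0.035 in the first, PPP4C at -0.076 and RGCC at 0.10 in the second, and CHST14 at -0.046 and HDHD5 at -0.14 in the third. With 1 library left out, SMAD3 deletion against negative control gave RGCC -0.23 to 0.068, CHST14 -0.059 to 0.036 and SEC61G -0.041 to 0.10. HPRT-targeted against negative control gave PPP4C -0.19 to 0.26, LLGL1 -0.091 to 0.12, GNB2 -0.15 to 0.10, RGCC -0.29 to 0.10, CHST14 -0.20 to 0.013 and SEC61G -0.025 to 0.11. SMAD3 deletion against HPRT-targeted gave NCSTN -0.18 to 0.029, RGCC -0.14 to 0.22, CHST14 -0.048 to 0.17, HDHD5 -0.16 to 0.13, SEC61G -0.085 to 0.027 and RNF130 -0.040 to 0.40. None of these passed the threshold in edgeR, and depth limits PPP4C and RGCC in S53 to 3 and 5 reads.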
